A study of Mus musculus with 23 samples.

Results

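The regions described here are the 800 weakest NR5A2-bound regions among autosomal regions in open chromatin of mouse embryos, ranked by the NR5A2 CUT&RUN signal of each region. They were taken from 7938 accessible autosomal regions, in a deposited table of 16958 NR5A2-bound regions (mm10). The authors class 8228 of all listed regions as accessible and 8730 as not accessible, and how that class was set was not given in the sources used here. CUT&RUN releases and sequences the DNA around a bound protein, and its values came from an earlier study, per the file headers. The members were chosen by that CUT&RUN value, so it is given below as a description only.

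Accessibility in 8-cell embryos was read by ATAC-seq, where a transposase tags open DNA with adapters. The maternal-zygotic (mz) series compared 13 single embryos labelled mz_NrKO with 8 single embryos labelled mz_NrHet, all processed directly after collection. The inducible series compared 1 pool treated with 4-hydroxytamoxifen (750 nM for 24 h), labelled iNrKO_plus_Tam_NrKO, with 1 untreated pool, labelled iNrKO_minus_Tam_Nrpp. Embryos of both pools were taken at the 2-cell stage, 30 h after hCG, and then spent 45 h in culture. The mz controls are labelled heterozygous, and no wild-type group is in the table. The labels do not say whether these controls received maternal Nr5a2, nor what Nrpp stands for, so the NR5A2 level behind each control value is not known. Below, values without NR5A2 are those of mz knockouts and of the treated pool, by label only. How complete the loss was in them is not known here. The driver of the deletion in the inducible line and the number of embryos in a pool are not given in the labels. The table holds 1 merged value per group and region, so variation among embryos could not be measured. All intervals and tests compare merged libraries and cover counting error only.

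NR5A2, an orphan nuclear receptor, contacts DNA as a monomer at an AAGGNCA-type core preceded by further bases. It keeps pluripotency genes active in early embryos and governs bile acid and steroid genes in liver, gut and ovary. A region bound by such a factor can be open because of that factor, or because a promoter or another factor opens it, and accessibility in embryos that lack NR5A2 measures how much of the opening is present without it.

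CUT&RUN signal in the 800 weakest regions lay between 0.246 and 2.49 RPKM, with a median of 2.01 RPKM. The other 7138 accessible autosomal regions had a median of 5.38 RPKM, and the 800 strongest a median of 12.2 RPKM. Whole reads could be recovered from these values, and the weakest regions held between 2 and 64 CUT&RUN reads, with a median of 14 (exact 95% Poisson interval 7.65 to 23.5). For 734 of the 800 (91.8%) the upper end of that interval passed the threshold, and 1401 of the other regions (19.6%) had a lower end below it. The order of regions near the threshold is therefore within counting error. The lowest values were 0.246 RPKM at a region 50.6 kb from Tbx19, a T-box factor gene, 0.402 RPKM at a region nearest to Gm597, and 0.404 RPKM at a region 51.8 kb from Insr, the insulin receptor gene, each from 2 reads. Just inside the threshold stood regions nearest to Spred2 (2.488 RPKM), Dck (2.489 RPKM) and Cntnap2 (2.489 RPKM). Just outside stood regions nearest to Pkd2l1 (2.490 RPKM), Arfgap3 (2.491 RPKM) and Nek5 (2.492 RPKM). Weak binding was not particular to open chromatin, since 2414 of the 8424 autosomal regions that are not accessible (28.7%) lay at or below the same threshold.

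**Figure D1:**
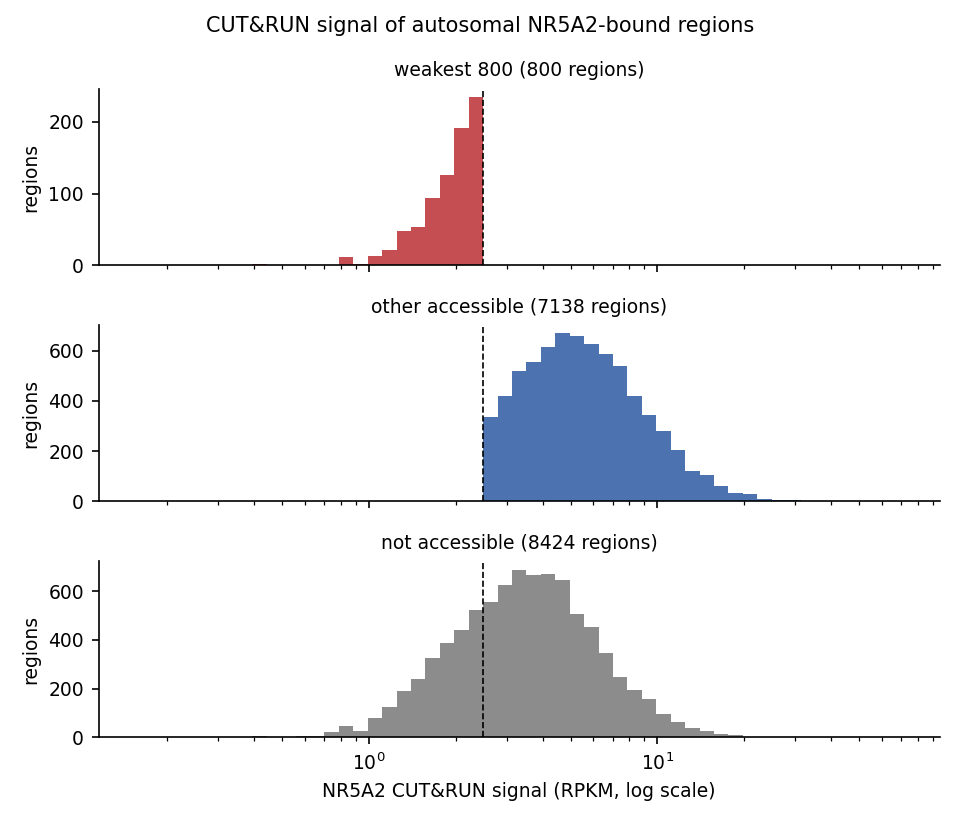
Number of autosomal NR5A2-bound regions (y axes) by CUT&RUN signal in RPKM (x axis, log scale), for the weakest 800, the other 7138 accessible regions and the 8424 regions that are not accessible. The dashed line is the highest signal of the weakest 800, 2.49 RPKM, and many regions that are not accessible lie to its left.

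The bases under the NR5A2 summit could be read where the summit lies in a RefSeq promoter window (GRCm38.p6, the assembly of mm10), which runs from 250 bases before to 50 after a start site. The authors recentred summits on an NR5A2 motif, and a summit that differs from the original one is called moved here. Letters were available around 8 moved summits of the weakest regions. In each, the core AAGGNCA was searched on both strands within 10 bases of the summit. They were found exactly in 4 windows and with 1 differing base in the other 4. All 8 are shown because they are the positions onto which the authors moved the members' summits. A match there follows from that recentring, and whether NR5A2 binds these bases was not tested. The lines give 29 bases of the plus strand with the summit at position 15, and capitals mark the core or its closest match. The first 4 match exactly.

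Slc51a (chr16:32487995-32488023): gcatagactccatTGGCCTTggggagact
Ap1s3 (chr1:79671955-79671983): ctacttcccacaaTGCCCTTgaactgaaa
Rps6kl1 (chr12:85151380-85151408): agccctagagtttgcAAGGCCAggaactc
Mfsd10 (chr5:34637412-34637440): atgtagccacggtTGACCTTgaattcctg
Pkm (chr9:59656534-59656562): cccgcagctgtgaTAACCTTgaggcccag
Ddx42 (chr11:106216694-106216722): aatcaacaccttaTTACCTTgagtttttc
Fdx1 (chr9:51963655-51963683): tctggttaagagtTCACCTTgaacttttt
Ctu1 (chr7:43671974-43672002): taggcaaagcagttcAAGGCCTtatggga

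Among the other accessible regions, 66 windows held a moved summit, of which 40 had the exact core and 26 a match with 1 differing base. At summits that were not moved, the exact core was present in 1 of 21 windows of the weakest regions, at Cep57l1, and in 2 of 78 windows of the other accessible regions. These counts are small and are a description of promoter sites, which are a minority of the 800. At the Slc51a site, beside the gene for a subunit of a bile acid and steroid transporter, accessibility was 1.08 RPKM in mz knockouts and 6.46 RPKM in heterozygotes, and 2.04 RPKM in the treated and 3.26 RPKM in the untreated pool. At the Mfsd10 site, which also has the exact core, it was 8.25 RPKM in mz knockouts and 9.40 RPKM in heterozygotes, and 4.93 RPKM in the treated and 5.71 RPKM in the untreated pool. Both sites had lower values without NR5A2. The Slc51a mz values rest on 3 reads in knockouts and 11 in heterozygotes (ratio 0.167, interval of counting error 0.0298 to 0.630). The inducible ratio at Slc51a was 0.626 (0.279 to 1.34), not distinguishable from 1. Whether the shortfall differs between these sites was not tested. Single regions were tested by an exact binomial test on their reads, adjusted over all 16958 regions, and neither site passed it. Fdx1 encodes a ferredoxin that passes electrons to steroid-making enzymes, and its region had 0.340 RPKM in the treated and 2.61 RPKM in the untreated pool, a difference that passed the test (adjusted p = 0.0305, exact binomial). In the mz series the same region had 1.79 RPKM in knockouts and 1.76 RPKM in heterozygotes, nearly equal. The Ddx42 site lies in the region named after Ccdc47 below, which passed the test in neither series. That region had 6.46 RPKM in mz knockouts and 10.6 RPKM in heterozygotes, but 6.47 RPKM in the treated and 3.59 RPKM in the untreated pool.

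The weakest regions were also less often centred on a motif. Summits had been moved onto a motif in 592 of the 800 (74.0%), in 89.0% of the other accessible regions and in 96.1% of the strongest. Where a summit was moved, the median shift was 87 bp in the weakest, 43 bp in the other and 39 bp in the strongest regions. The median distance between the CUT&RUN and ATAC summits was 187 bp in the weakest regions, 97.0 bp in the others and 69.5 bp in the strongest. The ATAC summit lay inside the listed region in 253 of the weakest (31.6%), in 68.2% of the others and in 82.9% of the strongest. Weakest regions were also narrower, with a median width of 240 bp, against 341 bp in the others and 343 bp in the strongest, and a narrow region is less likely to hold a given point. These shares are descriptions, and their differences were not tested.

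**Figure D2:**
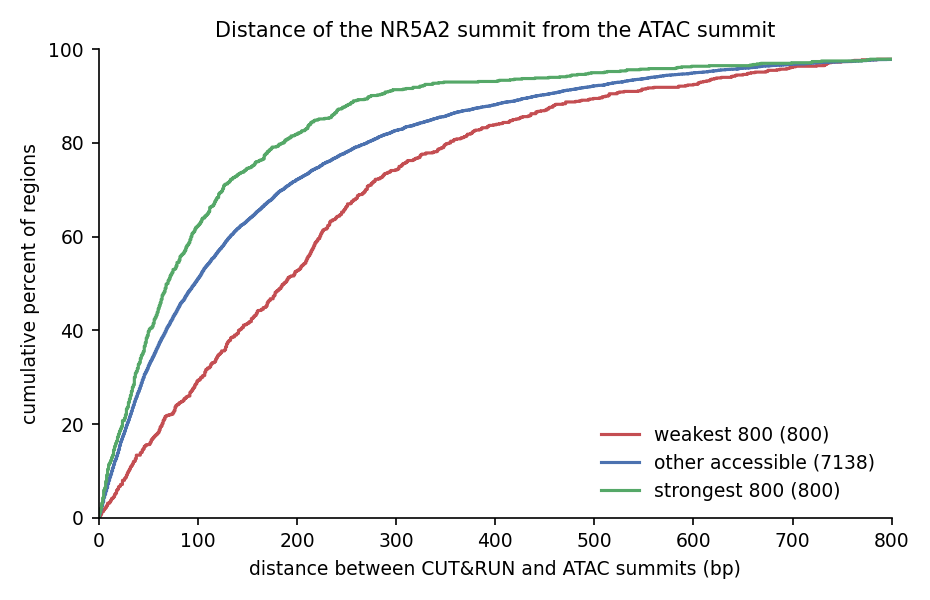
Cumulative percent of regions (y axis) by the distance in bp between the CUT&RUN and the ATAC summit (x axis), for the weakest 800, the other accessible and the strongest 800 regions. Within 100 bp lie 29.4% of the weakest, 51.1% of the other and 62.4% of the strongest regions.

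Positions in the genome differed too, with more of the weakest regions both near gene ends and far from any gene. A gene end, meaning either end of a protein-coding gene's span, lay within 1 kb of 96 of the weakest regions (12%), 8.88% of the others and 6.5% of the strongest. A promoter window was overlapped by 54 of the weakest (6.75%), 4.30% of the others and 2.88% of the strongest. Windows were missing for chromosome 18, which holds 37 of the 800. Regions inside genes made up 47.6% of the weakest and 48.0% of the others, and regions over 50 kb from any gene made up 12.2% of the weakest and 8.99% of the others.

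The exact core AAGGNCA, on either strand, was in 14 of the 69 promoter windows that the weakest regions touch (20.3%), in 29.5% of the 366 touched by other accessible regions and in 60.9% of the 23 touched by the strongest. Over all 21263 promoter windows it was in 18.4%. The longer CAAGGNCA, which contains the core, was in 11.6% of the windows of the weakest, 18.6% of those of the others and 47.8% of those of the strongest, against 5.82% of all windows. The CCAAT box, searched as CCAAT on both strands, was in 60.9% of windows of the weakest, 59.8% of those of the others and 38.2% of all. The GC box, searched as GGGCGG on both strands, was in 66.7% of windows of the weakest, 69.4% of those of the others and 46.2% of all. CCAAT boxes bind NF-Y and GC boxes bind SP-family factors, both general promoter factors, and a match in these windows is only a string of letters.

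The region with the highest control accessibility of the 800 lies before Cnot3, a subunit of the CCR4-NOT complex that shortens poly(A) tails. The stretches before the start sites of Cnot3, Baiap2l1, Zbtb3 and Lnpep are shown because these regions are 4 of the 8 most open in the controls. They are given on the strand of the gene, with CCAAT boxes in capitals for the first 3 and GC boxes for Lnpep.

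Cnot3 (chr7:3645019-3645158, plus strand): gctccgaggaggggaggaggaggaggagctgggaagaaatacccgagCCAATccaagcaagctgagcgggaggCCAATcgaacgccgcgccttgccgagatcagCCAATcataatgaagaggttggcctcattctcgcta
Baiap2l1 (chr5:144358300-144358362, minus strand): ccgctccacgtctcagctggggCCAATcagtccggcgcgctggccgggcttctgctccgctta
Zbtb3 (chr19:8802427-8802512, plus strand): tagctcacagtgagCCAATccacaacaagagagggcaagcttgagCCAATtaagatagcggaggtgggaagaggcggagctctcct
Lnpep (chr17:17624642-17624739, minus strand): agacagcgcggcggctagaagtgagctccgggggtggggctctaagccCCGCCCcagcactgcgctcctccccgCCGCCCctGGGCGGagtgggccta

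Accessibility at the Cnot3 region was 24.7 RPKM in mz knockouts and 28.2 RPKM in heterozygotes, and 11.4 RPKM in the treated and 12.4 RPKM in the untreated pool. The region of Baiap2l1, which encodes a membrane-bending adaptor of actin, had 17.6 RPKM in mz knockouts and 27.0 RPKM in heterozygotes, and 6.98 RPKM in the treated and 7.34 RPKM in the untreated pool. The region of Zbtb3, a zinc finger gene, had 16.1 RPKM in mz knockouts and 20.6 RPKM in heterozygotes, and 7.32 RPKM in the treated and 8.49 RPKM in the untreated pool. These 3 regions had somewhat lower values without NR5A2, and none passed the test. Lnpep encodes a membrane aminopeptidase, and its region had 19.4 RPKM in mz knockouts and 17.6 RPKM in heterozygotes, and 9.70 RPKM in the treated and 9.30 RPKM in the untreated pool. It was slightly higher without NR5A2 in both series, again without passing the test.

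Over all 800, mean accessibility was 3.11 RPKM in mz knockouts and 4.43 RPKM in heterozygotes, and 2.44 RPKM in the treated and 3.24 RPKM in the untreated pool. The other accessible regions averaged 3.70 RPKM in mz knockouts and 5.71 RPKM in heterozygotes, and 2.81 RPKM in the treated and 4.08 RPKM in the untreated pool. The weakest regions thus had lower values than the others in every group, and the gap was wider in the controls. These values were not divided by each region's own length, and the weakest regions were narrower (median 240 bp against 341 bp). Width bears on the gap only if reads were counted over the listed width. The values alone do not tell that from counting in a window of fixed size. The ATAC summit also lay inside fewer of them (31.6% against 68.2%). How much of the gap comes from width or summit position was not tested. Autosomal regions that are not accessible averaged 1.10 RPKM in mz knockouts and 1.49 RPKM in heterozygotes, and 1.12 RPKM in the treated and 1.60 RPKM in the untreated pool. Depth limits single regions. The median of the 800 held 7 reads in mz knockouts and 6 in heterozygotes, and 12 in the treated and 18 in the untreated pool. No read was counted at 16 of the 800 in mz knockouts and at 27 in heterozygotes, and 0 such regions occurred in either pool. A count of 0 allows up to 3 reads, which equals 1.08 RPKM in mz knockouts and 1.76 RPKM in heterozygotes.

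**Figure D3:**
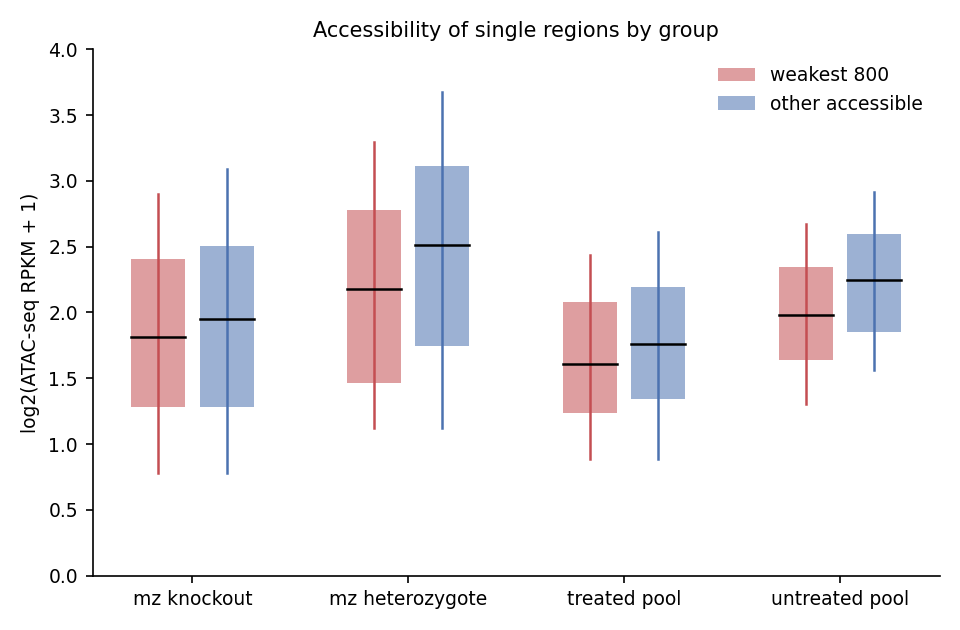
Accessibility of single regions as log2(ATAC-seq RPKM + 1) (y axis) in the 4 merged groups (x axis), for the weakest 800 and the other accessible regions. Boxes span the middle of the regions between the 25th and 75th percentiles, black lines are medians and thin lines run from the 10th to the 90th percentile. Medians of the weakest regions were 2.51 RPKM in mz knockouts and 3.52 RPKM in heterozygotes, and 2.04 RPKM in the treated and 2.94 RPKM in the untreated pool.

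In the mz series, summed accessibility of the weakest regions in knockouts was 0.702 of that in heterozygotes (exact 95% interval 0.678 to 0.727). The ratio was 0.649 (0.642 to 0.655) in the other accessible regions and 0.644 (0.627 to 0.661) in the strongest. The ratio of the weakest was 1.08 times that of the others (95% Wald interval 1.04 to 1.12) and 1.09 times that of the strongest (1.04 to 1.14), so the shortfall was smaller at weakly bound regions by more than counting error. With regions ranked by CUT&RUN reads in place of RPKM, weakest over strongest was 1.02 (0.982 to 1.07), no longer beyond it. Against all regions that are not accessible, with a ratio of 0.737, the weakest regions stood lower, at 0.953 times (0.916 to 0.991). Against those of them at or below the same CUT&RUN threshold, with a ratio of 0.815 (0.782 to 0.848), they stood at 0.862 times (0.817 to 0.909). Whether the accessibility class was itself set from these ATAC values is not known. Contrasts with regions that are not accessible, here and in the inducible series, are therefore descriptions only.

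In the inducible series, summed accessibility of the weakest regions in the treated pool was 0.754 of that in the untreated pool (0.736 to 0.773). The ratio was 0.690 (0.685 to 0.696) in the other accessible regions and 0.679 (0.666 to 0.692) in the strongest. The ratio of the weakest was 1.09 times that of the others (1.07 to 1.12) and 1.11 times that of the strongest (1.08 to 1.15). Regions that are not accessible had a ratio of 0.702, below that of the weakest, which stood at 1.07 times theirs (1.05 to 1.10). The series therefore placed the weakest regions on opposite sides of the closed regions as a whole. Against closed regions at or below the threshold, with a ratio of 0.825 (0.806 to 0.845), the weakest stood at 0.914 times (0.884 to 0.945), lower as in the mz series.

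With accessible regions ordered by CUT&RUN signal in 10 equal groups, mz ratios from the weakest to the strongest group were 0.703, 0.685, 0.675, 0.672, 0.651, 0.611, 0.656, 0.633, 0.631 and 0.643. Inducible ratios in the same order were 0.755, 0.733, 0.684, 0.705, 0.696, 0.689, 0.697, 0.678, 0.666 and 0.680. The first group had the highest ratio in both series, and the decline was neither steep nor even. Inside the 800, split into 4 equal groups, the mz ratios from low to high signal were 0.669, 0.725, 0.723 and 0.689, with overlapping intervals between 0.623 and 0.776. The inducible ratios were 0.752, 0.768, 0.770 and 0.727, with overlapping intervals between 0.693 and 0.807. No order by binding was visible within the 800.

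**Figure D4:**
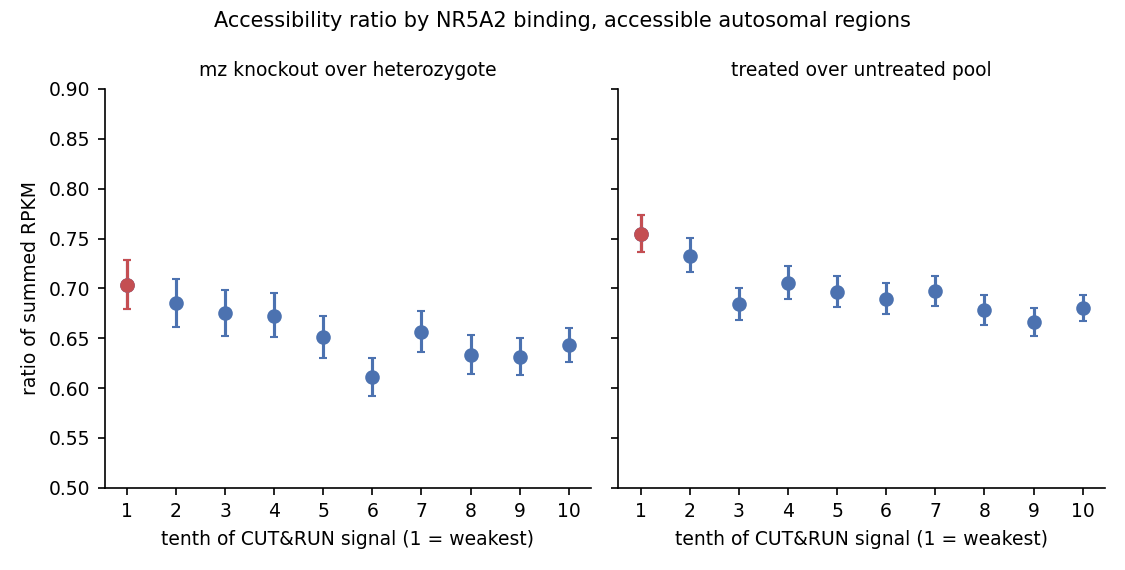
Ratio of summed RPKM (y axis) of mz knockouts over heterozygotes (left) and of the treated over the untreated pool (right), for accessible autosomal regions in 10 equal groups by CUT&RUN signal (x axis, 1 is the weakest). Points are ratios and bars exact 95% intervals of counting error, and the first group, in red, has the highest ratio in both panels (0.703 and 0.755).

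For a comparison of like openness, regions were split into 5 groups by their control value in the series not under comparison. In the mz series the weakest over other ratio was 1.04, 1.14, 1.04, 1.17 and 1.07 from the least to the most open group, above 1 by more than counting error in the second and the fourth. In the inducible series it was 1.15, 1.11, 1.16, 1.04 and 1.12, above 1 by more than counting error in all groups but the fourth.

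Ratios within the 800 differed by position. Weakest regions within 1 kb of a gene end had an mz ratio of 0.822 (0.763 to 0.886) and an inducible ratio of 0.914 (0.862 to 0.970). The 704 farther away had 0.672 (mz) and 0.725 (inducible). Gene-end over farther regions gave quotients of 1.22 (mz, 1.13 to 1.33) and 1.26 (inducible, 1.18 to 1.34). The 54 regions that overlap a promoter window had an mz ratio of 0.818 (0.749 to 0.893) and an inducible ratio of 0.989 (0.919 to 1.06), the second not distinguishable from 1 at this depth. Among the other accessible regions the gene-end ratios were 0.764 (mz) and 0.817 (inducible). Gene-end regions of the weakest set were also the more open ones, with means of 6.14 RPKM in mz knockouts and 7.47 RPKM in heterozygotes, and 3.78 RPKM in the treated and 4.14 RPKM in the untreated pool. Weakest regions farther away averaged 2.69 RPKM in mz knockouts and 4.01 RPKM in heterozygotes, and 2.26 RPKM in the treated and 3.12 RPKM in the untreated pool.

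Regions whose summit was not moved onto a motif had higher ratios. In the weakest set, the 208 such regions had an mz ratio of 0.764 and an inducible ratio of 0.817, against 0.671 and 0.728 for the 592 moved ones. Their quotient was 1.14 (mz, 1.06 to 1.22) and 1.12 (inducible, 1.06 to 1.18). Over 1 kb from gene ends the quotient was 1.08 (mz, 0.992 to 1.18) and 1.10 (inducible, 1.03 to 1.16), so in the mz series it no longer exceeded counting error. The 235 weakest regions with the ATAC summit within 100 bp had ratios of 0.660 (mz) and 0.737 (inducible). Other accessible regions of that kind had 0.637 (mz) and 0.689 (inducible), and weakest over other was 1.04 (mz, 0.971 to 1.10) and 1.07 (inducible, 1.02 to 1.12).

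Where position, motif and summit were held alike, the difference from the other regions was no longer beyond counting error. In 159 weakest regions over 1 kb from a gene end, with a moved summit and the ATAC summit within 100 bp, the mz ratio was 0.630 (0.579 to 0.684) and the inducible ratio 0.674 (0.637 to 0.712). The 3033 other accessible regions of that kind had 0.615 (mz) and 0.666 (inducible). The weakest over other ratio was 1.02 (mz, 0.942 to 1.11) and 1.01 (inducible, 0.957 to 1.07). These intervals include the difference seen over all 800 in the mz series but not the 1.09 of the inducible series. The comparison was chosen after the values were seen.

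**Figure D5:**
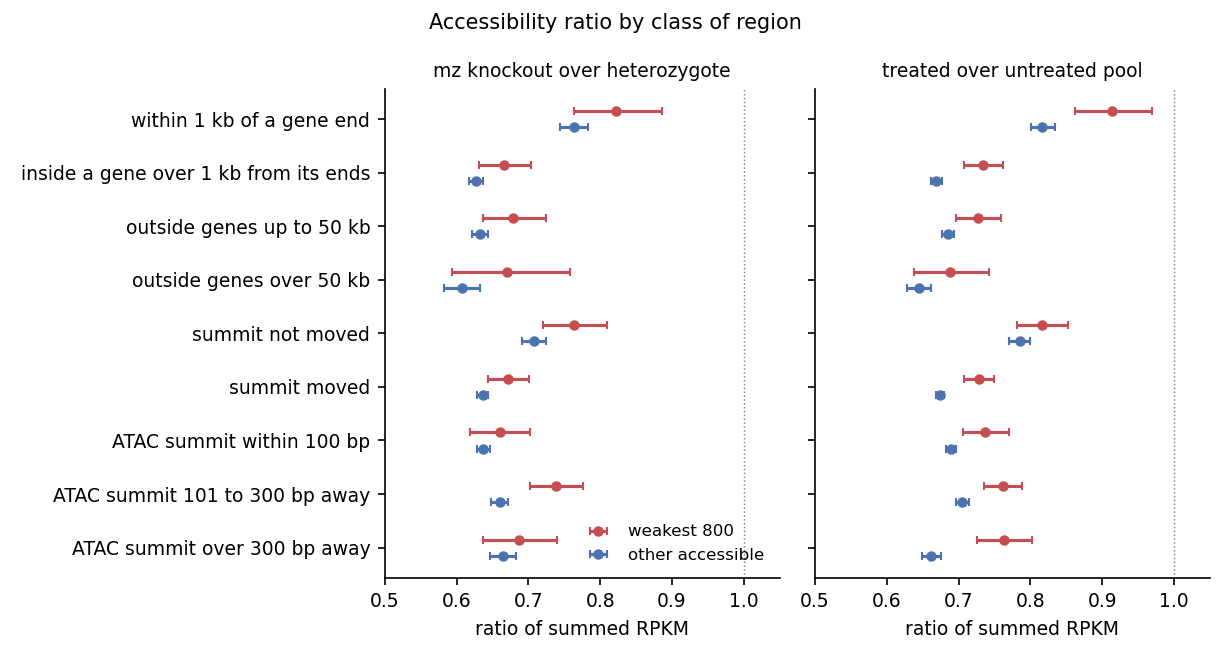
Ratio of summed RPKM (x axes) of mz knockouts over heterozygotes (left) and of the treated over the untreated pool (right), by class of region (rows), for the weakest 800 in red and the other accessible regions in blue. Bars are exact 95% intervals of counting error and the dotted line marks no difference. Weakest regions within 1 kb of a gene end reach 0.822 (left) and 0.914 (right).

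Shares of single regions past 1.5-fold lay near or below those of the table as a whole. In the mz series 377 of the 800 (47.1%) had a deposited ratio below 1/1.5, against 49.2% of all 16958 regions, and 125 (15.6%) had one above 1.5, against 20.3% of all. In the inducible series 351 (43.9%) were below 1/1.5, against 48.6% of all regions, and 54 (6.75%) were above 1.5, against 8.57% of all. The shares below 1/1.5 are near the background, and lower than those among other accessible regions, 52.9% (mz) and 49.5% (inducible). The shares above 1.5 are below the background, which includes the closed regions. They are higher than those among other accessible regions, 12.3% (mz) and 3.28% (inducible). After each pair of columns was scaled to equal sums over the table, which divides every ratio by 0.668 (mz) or 0.694 (inducible), 211 of the 800 were lower and 233 higher in the mz series. The inducible counts became 155 lower and 205 higher. The split of calls therefore depends on the scaling, which fixes what counts as no change, whereas the ratios between sets of regions do not. The median log2(RPKM + 1) difference of the 800 was -0.34 (mz) and -0.31 (inducible), against -0.32 and -0.35 over all regions. Among the other accessible regions it was -0.49 (mz) and -0.43 (inducible). In the authors' deposited table, 307 of the 800 (38.4%) are classed Down, 413 (51.6%) Unchanged and 80 (10.0%) Up. Over all regions these shares are 41.5%, 41.6% and 16.9%, and among the other accessible ones 46.7%, 46.1% and 7.26%.

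Both series had a ratio below 1/1.5 at 197 of the 800 (24.6%), against 27.1% of all regions and 30.7% of the other accessible ones. They make up 52.3% of the members lower in the mz series, against 55% over all regions, and 56.1% of the members lower in the inducible series, against 55.7% over all regions. Of the members not lower in the mz series, 36.4% were lower in the inducible series, against 42.4% over all regions. The overlap was thus near that of the whole table. Above 1.5 in both were 9 (1.12%), against 2.60% of all regions and 0.841% of the other accessible ones.

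The region with the most control reads among those lower in both series lies 12.8 kb from Id2 (chr12:25108925-25109183), which encodes an inhibitor of basic helix-loop-helix factors made in trophectoderm. It had 10.4 RPKM in mz knockouts and 23.5 RPKM in heterozygotes, a ratio of 0.443 that missed the threshold (adjusted p = 0.0544, exact binomial with Benjamini-Hochberg adjustment over all regions). In the inducible series it had 5.45 RPKM in the treated and 9.63 RPKM in the untreated pool. A region inside Asap2, an Arf GTPase-activating protein gene, had 4.30 RPKM in mz knockouts and 15.9 RPKM in heterozygotes and passed the test (adjusted p = 0.0162, exact binomial). It had 3.06 RPKM in the treated and 6.69 RPKM in the untreated pool. The region near Tle4, a Groucho-type corepressor gene, had 3.74 RPKM in the treated and 8.32 RPKM in the untreated pool and passed there (adjusted p = 0.0305, exact binomial). Its mz values were 2.15 RPKM in knockouts and 5.87 RPKM in heterozygotes, lower in the same direction. Regions at Atg4c, an autophagy protease gene, Ccdc84, Klhl7, an adaptor of a ubiquitin ligase, Skida1 and Rab10, a small GTPase of vesicle transport, completed the 8 by control reads. Their mz knockout values lay between 3.59 and 7.89 RPKM, and their heterozygote values between 7.64 and 15.3 RPKM. None of these 5 passed the test in either series.

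Of the members higher in both series, the 5 with the most knockout reads were at Sema4d, an axon guidance gene, 1810010H24Rik, Zfp936, Spast, which encodes a microtubule-severing enzyme, and Kcnj6, a potassium channel gene. The Spast region had 5.38 RPKM in mz knockouts and 1.76 RPKM in heterozygotes, and 3.40 RPKM in the treated and 1.31 RPKM in the untreated pool. The Sema4d region had 4.66 RPKM in mz knockouts and 1.17 RPKM in heterozygotes, and 4.93 RPKM in the treated and 2.77 RPKM in the untreated pool. None of the 5 passed the test in either series, and the heterozygote values rest on 1 to 4 reads.

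By the exact binomial test, 9 of the 800 (1.12%) fell in the mz series, against 1.73% of all regions. In the same test 0 rose, against 0.0236% of all regions. Among the other accessible regions 3.35% fell and 0.0560% rose. At an unadjusted p under 0.05, 106 were lower and 7 higher, counts near the background of 11.9% lower and 0.708% higher over all regions. Of the 7138 other accessible regions, 1429 were lower and 57 higher. The region inside Dscaml1, a cell adhesion gene, had 1.08 RPKM in mz knockouts and 9.40 RPKM in heterozygotes (adjusted p = 0.0112, exact binomial). In the inducible series it had 0.510 RPKM in the treated and 2.29 RPKM in the untreated pool. The region inside Dysf, which encodes a membrane repair protein of muscle, had 4.66 RPKM in mz knockouts and 15.3 RPKM in heterozygotes (adjusted p = 0.0338, exact binomial), and 4.93 RPKM in the treated and 5.55 RPKM in the untreated pool. Its shortfall was thus large in the mz series and small in the inducible one. The other 7 were at Asap2, Atp4b, Bicdl1, Endov, Uggt1, Rab11fip4 and Gm3325, with adjusted p between 0.0162 and 0.0490 by the exact binomial test. All 9 lay over 1 kb from a gene end, and 7 had a moved summit. Of the 800, 88.0% lay that far from a gene end and 74.0% had a moved summit, against 89.3% moved over all regions.

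In the inducible series, which has more reads, 48 of the 800 (6.0%) fell, against 6.37% of all regions. Only 1 rose (0.125%, against 0.0767% of all). Among the other accessible regions 10.6% fell and 0.0841% rose. At an unadjusted p under 0.05, 144 were lower and 11 higher, with 19.7% lower and 0.879% higher over all regions. Of the 7138 other accessible regions, 1984 were lower and 43 higher. The region inside Pax3, a factor of neural crest and muscle, had 0.170 RPKM in the treated and 3.92 RPKM in the untreated pool (adjusted p = 0.000504, exact binomial). Its mz values were 1.79 RPKM in knockouts and 1.17 RPKM in heterozygotes, from 5 and 2 reads. The region inside Rin2, a Rab5 regulator, had 1.53 RPKM in the treated and 6.86 RPKM in the untreated pool (adjusted p = 0.000819, exact binomial), with 1.43 RPKM in mz knockouts against 5.29 RPKM in heterozygotes.

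Of the 48 regions, 41 had a moved summit, 26 lay inside genes and 2 lay within 1 kb of a gene end, including the Fdx1 region with the printed site. Tacc1 and Ptpn3 each had 2 regions among the 48. The Tacc1 regions had 1.53 and 0.340 RPKM in the treated pool, against 5.55 and 2.61 RPKM in the untreated pool. The Ptpn3 regions, which lie next to each other, had 1.87 and 1.19 RPKM in the treated pool, against 5.39 and 4.73 RPKM in the untreated pool. Regions nearest to Akr1d1, a bile acid synthesis enzyme gene, and Klb, the gene of beta-Klotho, a coreceptor of endocrine FGFs, were also among them. The Akr1d1 region had 0.681 RPKM in the treated and 3.43 RPKM in the untreated pool, and the Klb region 1.02 RPKM in the treated and 4.08 RPKM in the untreated pool. For this Akr1d1 region the mz values, 2.51 RPKM for knockouts against 2.94 RPKM for heterozygotes, were not distinguishable (ratio 0.855, 0.234 to 3.42). Another member nearest to Akr1d1 passed the test in neither series, with ratios of 1.53 (mz) and 0.652 (inducible). In the mz series the Klb region had 7.17 RPKM in knockouts and 5.87 RPKM in heterozygotes. The 1 region that rose, inside Rit1, a small GTPase gene, had 3.57 RPKM in the treated and 0.979 RPKM in the untreated pool (adjusted p = 0.0498, exact binomial). Regions that fell in both series by this test were 2, at Rab11fip4, a Rab11 effector, and near Gm3325, against 0.413% of all regions. Of the 7138 other accessible regions, 60 did so. The Rab11fip4 region had 2.15 RPKM in mz knockouts and 9.99 RPKM in heterozygotes, and 1.19 RPKM in the treated and 4.73 RPKM in the untreated pool. With columns scaled to equal sums, 0 of the 9 mz calls were kept, and the inducible calls were 2 lower, Pax3 among them, and 4 higher, at Tfap2a, Ccdc47, Rit1 and Adora1.

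Within 10 kb of the genes of 11 lists, of early lineages and of general and other functions, lay 103 accessible regions, of which 8 (7.77%) were members. The 800 make up 10.1% of all accessible autosomal regions, and the difference was not tested. None of the 8 passed the test in either series. The lists of primitive endoderm, translation, mitosis, liver and steroid targets, and granulosa genes had 0 members. Their genes had only 6, 11, 12, 1 and 6 accessible regions in that order, so 0 members says little about any single list. At Tfcp2l1, a pluripotency factor gene, the region had 2.87 RPKM in mz knockouts and 1.17 RPKM in heterozygotes, and 2.04 RPKM in the treated and 3.43 RPKM in the untreated pool. The region 0.633 kb from Krt8, a trophectoderm keratin gene, had 7.89 RPKM in mz knockouts and 17.0 RPKM in heterozygotes, and 4.76 RPKM in the treated and 6.53 RPKM in the untreated pool. Among polarity and Hippo genes, 2 regions lay inside Wwtr1, the gene of the YAP paralogue TAZ, and 1 inside Tjp1, a tight junction gene. The more open Wwtr1 region had 6.10 RPKM in mz knockouts and 5.87 RPKM in heterozygotes, and 1.70 RPKM in the treated and 2.61 RPKM in the untreated pool. The other Wwtr1 region had 2.15 RPKM in mz knockouts and 1.17 RPKM in heterozygotes, and 2.21 RPKM in the treated and 1.31 RPKM in the untreated pool. Its values without NR5A2 were the higher ones in both series, unlike those of its neighbour in the inducible series. The Tjp1 region was at 0.359 RPKM in mz knockouts and had no read in heterozygotes, and had 1.53 RPKM in the treated and 2.45 RPKM in the untreated pool. The region near Tdpoz4, a 2-cell stage gene, had 2.15 RPKM in mz knockouts and 2.35 RPKM in heterozygotes, and 2.55 RPKM in the treated and 3.10 RPKM in the untreated pool. The region inside Padi6, a maternal-effect gene, had 1.43 RPKM in mz knockouts and 1.76 RPKM in heterozygotes, and 1.36 RPKM in the treated and 2.29 RPKM in the untreated pool. The region 8.65 kb from Hspa8, a chaperone gene, had 8.61 RPKM in mz knockouts and 9.99 RPKM in heterozygotes, and 4.76 RPKM in the treated and 6.86 RPKM in the untreated pool. Each of the last 3 had lower values without NR5A2 in both series, by less than the test could call. A nearest gene is a position only, and no expression was measured here.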

How the data were processed

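ATAC-seq libraries came from 23 samples (13 mz knockout and 8 heterozygous embryos, 1 treated and 1 untreated pool). Cutadapt, Bowtie2, MACS2 and mm10 are named, without versions, per the submitters' processing notes. The RPKM values, merged per group, and the ratio columns were deposited by the authors, per the file headers. Each deposited ratio is knockout over control, with 0.01 added to both. How embryos were merged, insertions shifted or duplicates removed was not given in the sources used here, and duplicates left in would make the intervals too narrow.

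Every ATAC value was a whole multiple of 1 step per column (largest deviation 8e-08 of a read), so reads were recovered: 109296 in mz knockouts, 99826 in heterozygotes, 190091 in the treated and 285671 in the untreated pool over all 16958 regions. A read was worth 0.359, 0.587, 0.170 and 0.163 RPKM in that order. CUT&RUN reads were recovered from RPKM times width. ATAC values were not divided by the region's length. The values alone do not tell whether reads were counted over the listed width or in a window of fixed size.

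The members and gene lists were chosen with earlier results of these data known. Ratios of summed RPKM have exact conditional 95% intervals, ratios of ratios Wald intervals on log odds, and single regions a two-sided exact binomial test with Benjamini-Hochberg adjustment over 16958 regions at 0.05 (scipy 1.17.1, pandas 2.3.3, numpy 2.4.6, Python 3.11.15). The procedures were tested on simulated data. Genes and promoters are RefSeq (GRCm38.p6), with windows for 17492 of 21900 protein-coding genes. Named members were the 3 lowest, those beside the threshold and the 8 most open in the controls. Further ones were the 8 (lower in both) and 5 (higher in both) with most reads. The rest were those past the test and those within 10 kb of listed genes. Slc51a, Mfsd10, Ddx42, Akr1d1 and Klb were singled out after their values were seen. The values of 1 region past the test are not reported here.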

Additional observations from a re-analysis of the deposited data

Results flagged for a closer look

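The ratio of the weakest regions was less far below 1 in the inducible than in the mz series. The inducible over mz quotient was 1.07 (95% Wald interval of counting error 1.03 to 1.12) over all 800. It was 1.11 (1.01 to 1.22) in those within 1 kb of a gene end and 1.08 (1.03 to 1.13) in those farther away. The other accessible regions gave 1.06 (1.05 to 1.08), so the quotient was not particular to weak binding. By label, the series differ in how and when the knockout arose, and only the treated pool was exposed to the drug. They also differ in genotype of the control, culture, pooling and depth. These differences cannot be told apart here.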

How the results depend on the processing

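Of 74 alternatives, 56 left the direction and the side of the threshold as given, 7 took an interval across 1, 11 moved a value or count, and 0 reversed a direction. Medians over regions in place of sums gave 0.790 for the mz ratio, 0.804 for the inducible ratio and 1.19 for mz weakest over strongest. With the ATAC summit within 100 bp, mz weakest over other was 1.04 (0.971 to 1.10) and over strongest to 1.03. With regions ranked by CUT&RUN reads, mz weakest over strongest was 1.02. Over 1 kb from a gene end, with summit moved and ATAC summit within 100 bp, weakest over other was 1.02 (mz) and 1.01 (inducible), and weakest over strongest 1.06 (mz) and 1.05 (inducible). These 3 choices were made after seeing the data. Members past 1.5-fold lower were 377 in the mz series, 211 under equal column sums and 248 past 2-fold; in the inducible series 351, against 226 with a pseudocount of 1, 155 under equal sums and 192 past 2-fold. Under equal sums 29.0% of all regions were lower and 32.0% higher in the mz series, and 27.1% and 24.3% in the inducible series. Binomial calls were 9 in the mz series, 0 under equal sums and 14 with at least 5 reads, and 49 in the inducible series, 6 under equal sums. The cause of these moves was not tested. No paired analysis was possible because the table holds 1 merged value per group, and no embryo could be left out for the same reason. Single regions are limited by depth, at a median of 6 reads in heterozygotes.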
